A study of Homo sapiens with 6 samples.

Results

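Small nucleolar RNA (snoRNA) genes were examined in ChIP-seq region lists of RNA polymerase II from HepG2 cells, a line derived from a human liver tumour. ChIP-seq recovers DNA fragments cross-linked to a protein with an antibody, and a region is listed where fragments are enriched over the input DNA of the same cells. One antibody recognised RPB1, the largest subunit of RNA polymerase II, and the other recognised RPB1 phosphorylated on serine 2 of its C-terminal repeats (pSer2), a form associated with elongation. The cells were SHP-1 WT or SHP-1 KO, made with CRISPR/Cas9 and guides to the phosphatase domain of PTPN6, the gene of the tyrosine phosphatase SHP-1. Untransfected cells and cells given a nontargeting guide were both made as controls. Which of them was the WT of the ChIP-seq is not given in the sources used here. Each antibody was applied once in each cell type, with 2 input libraries, which were not analysed here. The edited cells were grown as single-cell clones, the clone used is not given in the sources used here, and a difference between WT and KO therefore cannot be told apart from a difference between clones or between libraries. With 1 library per antibody and cell type no difference below has a replicate check, no p-value is given, and the depth of the libraries is unknown.

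The members are the listed regions whose assigned nearest gene has a symbol that starts with SNORD, SNORA or SCARNA. There were 1482 such regions among 271336 in the 4 lists. They carried 244 gene names, 135 SNORD, 95 SNORA and 14 SCARNA, and all 244 were found among the 573 genes of these families in RefSeq. Of the 244, 69 had a region in all 4 lists and 79 in 1 list only.

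snoRNAs are short stable RNAs of the nucleolus that guide the modification of other RNAs. C/D box snoRNAs (SNORD) pair with ribosomal or small nuclear RNA and direct 2′-O-methylation by fibrillarin, H/ACA box snoRNAs (SNORA) direct the conversion of uridine to pseudouridine by dyskerin, and small Cajal body RNAs (SCARNA) do the same to the RNAs of the spliceosome. Most human snoRNAs have no promoter of their own. They lie in introns of host genes, are transcribed by RNA polymerase II as part of the host pre-mRNA and are released when the intron is processed, so polymerase over a snoRNA gene is in most cases polymerase that transcribes the host. Many hosts encode ribosomal proteins or translation and nucleolar factors, and others, such as GAS5 and the SNHG genes, are noncoding. A few members, among them U8 (SNORD118), U13 (SNORD13), the U3 genes (SNORD3), SCARNA2 and SCARNA17, are transcribed from their own promoters.

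The sequences of 8 members on which the results below turn are shown to make the families visible, from the hg38 genome at RefSeq coordinates, 5′ to 3′ on the strand of the gene. In the C/D box snoRNAs the capitals mark the first TGATG, the core of the C box, and the last CTGA, the D box. In the H/ACA snoRNAs the capitals mark the ACA box near the 3′ end, which is written ATA in SNORA44. SNORD118 is at chr17:8173452-8173588 (minus), SNORD52 at chr6:31837076-31837139 (plus), SNORD43 at chr22:39319052-39319113 (minus), SNORD24 at chr9:133349396-133349470 (plus), SNORD45B at chr1:75789477-75789547 (plus), SNORA44 at chr1:28580381-28580512 (minus), SNORA17A at chr9:136726747-136726879 (minus) and SNORA65 at chr9:127448502-127448637 (minus).
SNORD118: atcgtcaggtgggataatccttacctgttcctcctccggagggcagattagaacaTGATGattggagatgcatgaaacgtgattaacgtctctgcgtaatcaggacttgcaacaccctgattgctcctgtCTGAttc
SNORD52: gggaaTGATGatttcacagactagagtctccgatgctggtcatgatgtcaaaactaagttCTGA
SNORD43: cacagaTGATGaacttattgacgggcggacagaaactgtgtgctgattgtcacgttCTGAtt
SNORD24: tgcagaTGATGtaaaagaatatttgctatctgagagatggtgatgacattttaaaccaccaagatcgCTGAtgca
SNORD45B: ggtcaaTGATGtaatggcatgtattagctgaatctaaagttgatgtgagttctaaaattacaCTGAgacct
SNORA44: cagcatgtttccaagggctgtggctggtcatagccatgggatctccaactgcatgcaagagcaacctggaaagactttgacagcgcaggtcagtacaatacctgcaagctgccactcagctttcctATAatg
SNORA17A: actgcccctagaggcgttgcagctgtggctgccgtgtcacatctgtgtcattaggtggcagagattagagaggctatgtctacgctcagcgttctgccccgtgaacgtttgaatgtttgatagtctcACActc
SNORA65: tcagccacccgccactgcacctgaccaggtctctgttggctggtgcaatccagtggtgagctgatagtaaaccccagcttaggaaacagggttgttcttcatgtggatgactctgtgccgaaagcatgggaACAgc
Of 106 SNORD genes that were assigned and overlapped by a region, all held CTGA within the last 25 bases and 99 (93.4%) also held TGATG on the gene strand. All 70 SNORA genes of the same kind held A, any base and A ending 2 to 4 bases before the 3′ end. The SNORD genes were 62 to 237 bases long with a median of 80, and the SNORA genes 121 to 200 bases with a median of 134, so these genes are shorter than the median listed region of 350 to 443 bp.

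The members took similar shares of the lists. They were 226 of 46045 regions in WT RPB1 (0.491%, 95% Wilson interval 0.431 to 0.559) and 245 of 41605 in KO RPB1 (0.589%, 0.520 to 0.667). In pSer2 they were 573 of 102674 in WT (0.558%, 0.514 to 0.606) and 438 of 81012 in KO (0.541%, 0.492 to 0.594). The intervals of WT and KO overlapped for both antibodies and cover counting error only. The assigned genes numbered 114 in WT RPB1, 128 in KO RPB1, 186 in WT pSer2 and 149 in KO pSer2.

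The measure of occupancy is the listed fold enrichment of a region, the signal at its summit relative to input. Its median over the member regions was 5.35 in WT RPB1 and 5.47 in KO RPB1, beside 5.51 and 5.62 over all regions of those lists. In pSer2 it was 3.81 in WT and 4.07 in KO, beside 3.69 and 3.80. In the top decile of their list were 14 of 226 member regions in WT RPB1 (6.19%), 24 of 245 in KO RPB1 (9.80%), 86 of 573 in WT pSer2 and 86 of 438 in KO pSer2 (19.6%). Members thus stood higher within the pSer2 lists than within the RPB1 lists.

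Assignment to the nearest gene start does not say that a region lies on the snoRNA. Only 49 of 226 member regions in WT RPB1, 73 of 245 in KO RPB1, 105 of 573 in WT pSer2 and 90 of 438 in KO pSer2 overlapped any snoRNA gene, and other regions that did so were assigned to a host or neighbour. Counted by position, with at least 1 bp of overlap, 139 of the 573 RefSeq genes lay under a region in WT RPB1, 170 in KO RPB1, 241 in WT pSer2 and 222 in KO pSer2. Of these genes 274 lay under a region in at least 1 list and 119 in all 4, and 90 of the 274 were never the assigned gene. A region can span several snoRNA genes, up to 11 in GAS5. Both counts are therefore given below, and values by position are for the strongest region over the gene.

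Occupancy varied with the place of the snoRNA in its host. Hosts were taken from GENCODE release 44 as the annotated gene that contains the snoRNA, and the distance is from the annotated host start, the outermost of any transcript of the host. Of 64 snoRNA genes less than 2 kb from the host start, 52 (81.2%, interval 70.0 to 88.9) lay under a WT RPB1 region and 51 (79.7%, 68.3 to 87.7) under a WT pSer2 region. Of 88 genes 5 to 20 kb from the start, 13 (14.8%, 8.84 to 23.7) lay under a WT RPB1 region and 49 (55.7%, 45.3 to 65.6) under a WT pSer2 region. Of 118 genes over 100 kb from the start none lay under an RPB1 region in either cell type, while 10 lay under a WT pSer2 region and 3 under a KO pSer2 region. The upper limit of 3.15% for RPB1 would hold only for independent genes. This class includes the 48 tandem SNORD115 genes of the single host SNHG14, described below, so an effect of distance cannot be told apart from that of this host. In KO cells the nearest genes were covered by RPB1 in 57 of 64 cases and by pSer2 in 52 of 64, and those 5 to 20 kb away in 20 and 41 of 88. RPB1 coverage fell from the first 2 kb onward, whereas the pSer2 shares of the first 2 distance classes were alike, 79.7% and 80.6% in WT.

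The summits of the regions over the snoRNA genes showed the same order. Among genes with a host, the summit lay within 1 kb of the host start for 61 of 134 genes in WT RPB1 (45.5%) and 70 of 164 in KO RPB1 (42.7%), but for 12 of 234 in WT pSer2 (5.13%) and 14 of 214 in KO pSer2 (6.54%). In pSer2 the summit was most often downstream of the snoRNA, for 153 genes in WT and 138 in KO, while in RPB1 it was downstream for 24 and 41. The median summit position was 1043 bp from the host start in WT RPB1, 1255.5 bp in KO RPB1, 6207 bp in WT pSer2 and 6120 bp in KO pSer2. The summit was inside the snoRNA gene itself for only 8 of 139 genes in WT RPB1, 9 of 170 in KO RPB1, 22 of 241 in WT pSer2 and 27 of 222 in KO pSer2. Genes of 1 host share regions, so these counts are not of independent sites.

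**Figure D1:**
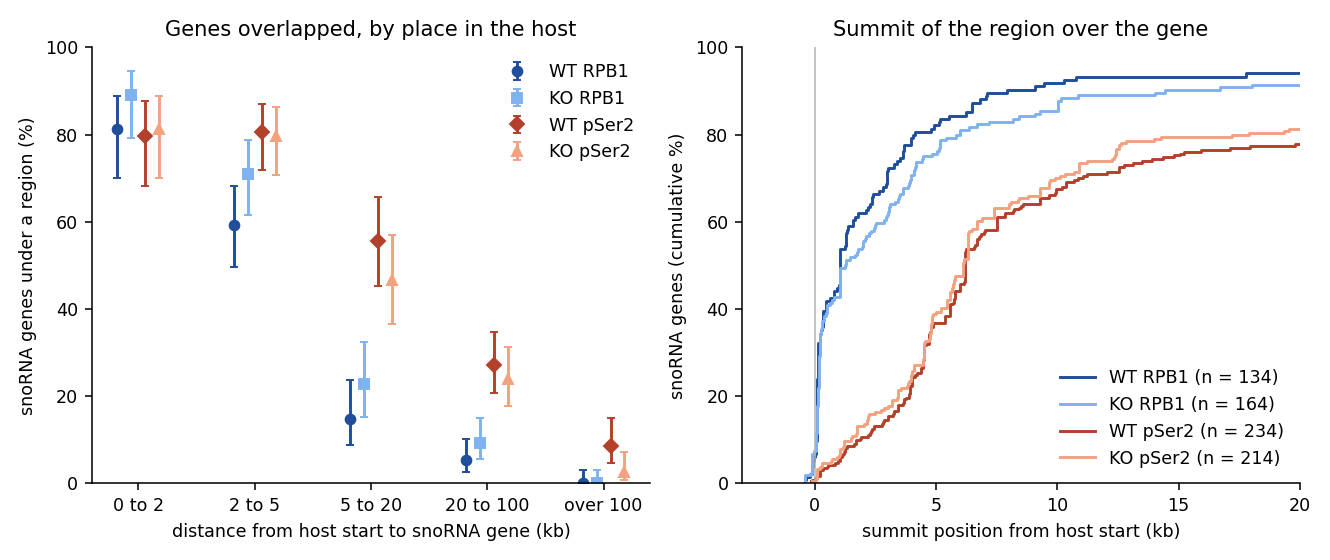
The left panel plots the percentage of snoRNA genes with a host that lie under a region, in 5 classes of distance from the host start in kb, with 95% Wilson intervals, and the right panel the cumulative percentage of genes against the position of the region's summit from the host start in kb (the axis ends at 20 kb). RPB1 coverage fell to 14.8% in WT and 22.7% in KO at 5 to 20 kb while pSer2 stayed at 55.7% and 46.6%, and the RPB1 summits sat closer to the host start than the pSer2 summits in both cell types.

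The kind of host also separated the members. Of 59 snoRNA genes in ribosomal protein genes, 38 (64.4%) lay under a region in WT RPB1, 47 (79.7%) in KO RPB1 and 57 (96.6%) in each pSer2 list. Of 146 genes in SNHG genes, GAS5 or ZFAS1, of which 83 lie in SNHG14, 49 (33.6%) lay under a region in WT RPB1 and 74 (50.7%) in WT pSer2. Of 261 genes in other coding hosts, 44 (16.9%) and 102 (39.1%) did so. The median fold enrichment of the WT RPB1 region over the gene was 32.7 for ribosomal protein hosts, 47.1 for the SNHG, GAS5 and ZFAS1 hosts and 7.19 for other coding hosts. In WT pSer2 these medians were 11.1, 11.4 and 6.31. By family, 95 of 362 SNORD, 40 of 182 SNORA and 4 of 29 SCARNA genes lay under a WT RPB1 region, and 154, 79 and 8 under a WT pSer2 region.

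Of the members with their own promoters, SCARNA2, SNORD118, SNORD13 and SCARNA17 lay under strong RPB1 regions in both cell types, unlike the U3 genes. SCARNA2, which guides modification of U2 small nuclear RNA, had an RPB1 fold enrichment of 72.3 in WT and 85.8 in KO, the highest assigned value of any member in KO. SNORD118 (U8), a C/D snoRNA needed for the processing of the large ribosomal RNAs, had 36.9 in WT and 37.9 in KO for RPB1 and 13.1 and 13.5 for pSer2. The printed C box of SNORD118 lies 55 bases from its 5′ end, whereas it lies 5 or 6 bases from the 5′ end of the other C/D snoRNAs shown. SNORD13 (U13) had 40.7 in WT and 53.7 in KO for RPB1 and 14.2 and 16.9 for pSer2. SCARNA17, by position, had 66.6 in WT and 54.1 in KO for RPB1, 4.76 in WT for pSer2 and no region over it in KO pSer2. These RPB1 values are also the assigned values of SNHG22, so the 2 genes are not separate results. The regions assigned to SCARNA17 itself were weak, with RPB1 of 4.22 in KO only and pSer2 of 4.73 in WT and 4.50 in KO. The summits at SCARNA2 were inside the gene in all 4 lists and those at SNORD118 and SNORD13 were 25 to 163 bp from it. In all 4 genes the RPB1 ratio of KO to WT lay within 1.5-fold without centring, while after centring on all genes, as explained below, SNORD13 (log2 0.83) and SCARNA2 (log2 0.68) were past it.

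The U3 genes gave few regions. A region partly over SNORD3B-1, assigned to SNORD3B-2, had 13.0 in WT RPB1 and 12.7 in KO RPB1, SNORD3A had 5.28 in KO RPB1 only, SNORD3D was assigned a region of 4.22 in KO RPB1 only that did not lie over it, and SNORD3C had none. SNORD3J, a further copy, was assigned RPB1 regions of 39.7 in WT and 24.2 in KO that did not lie over it. These genes are near-identical copies, so reads may not be placed on one of them and the values are uncertain.

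Among host-borne members, the strongest assigned RPB1 values were in hosts of the translation machinery and in SNHG genes. SNORD43, in an intron of RPL3 (a large-subunit ribosomal protein) 1276 bp from its start, had RPB1 of 76.4 in WT and 56.1 in KO and a pSer2 region over the gene of 9.34 in WT and 18.9 in KO. The KO pSer2 region was 10504 bp long with its summit 7918 bp away, and the WT region was 2471 bp long with its summit 477 bp away, so the 2 pSer2 values are of different places. SNORD52, in SNHG32, had 74.9 and 68.2 for RPB1 and 14.9 and 15.6 for pSer2. SNORA44, in SNHG12, had 70.4 and 67.9 for RPB1 and 7.74 and 14.2 for pSer2, whereas within 5 kb of SNORA44 the strongest pSer2 region had 23.3 in WT and 14.2 in KO. SNORD24, in RPL7A, had 66.7 and 55.8 for RPB1 and 8.16 and 3.41 for pSer2, and 22.1 and 19.8 for pSer2 within 5 kb. In each of these 4 genes RPB1 was lower in KO than in WT by less than 1.5-fold without centring. After centring on all genes, as explained below, the log2 ratio was -0.016 at SNORD43, 0.29 at SNORD52, 0.38 at SNORA44 and 0.17 at SNORD24.

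In GAS5, a noncoding host whose exons are poorly conserved, a single region spanned all 11 snoRNA genes in every list, with RPB1 of 72.2 in WT and 49.3 in KO and pSer2 of 34.4 and 28.3. In SNHG1 the 8 snoRNA genes lay under RPB1 regions of 46.4 to 47.1 in WT and under 1 region of 55.4 in KO, and under single pSer2 regions of 28.5 and 30.2. The strongest assigned pSer2 values in WT were 35.2 at SNORA70 (RPL10), 34.3 at SNORD83A (RPL3), 31.5 at SNORA64 (RPS2) and 29.5 at SNORD45B (RABGGTB). In KO these genes had 22.3, 18.9, 8.75 and 7.52, but a choice by the values of 1 list favours that list. Chosen by KO values, the strongest were SNORA65 at 28.7, SNORD12B at 23.4, SNORA70 at 22.3 and SNORD73B at 20.4. In WT SNORA65 had 17.3, SNORD12B 16.6 and SNORA70 35.2, and SNORD73B was assigned no region. By position, the strongest RPB1 regions over a snoRNA, named after their values were seen, were at SNORD134 in FASN (144.5 in WT, 12.1 in KO) and SNORA57 (126.4 in WT, 103.1 in KO). At SNORD134 the WT region was 21311 bp long with its summit 8016 bp away, and the strongest KO region within 5 kb had 88.7, with the KO region over the gene 10873 bp long.

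Hosts with several snoRNA genes, described here after their values were seen, differed in how RPB1 regions were divided among the genes. The 5 snoRNA genes of EIF4A2, a translation initiation factor, lay under single pSer2 regions of 31.0 in WT and 28.8 in KO, while RPB1 was 72.7 and 59.5 over SNORD2, 7.18 and 10.4 over SNORA4, and not listed over SNORA63B. The 8 snoRNA genes of TAF1D, a subunit of an RNA polymerase I initiation factor, lay under pSer2 regions of 22.2 and 24.3, while RPB1 covered 4 of the 8 in WT, at 3.43 to 11.3, and 7 in KO, at 4.32 to 27.5. The 5 snoRNA genes of NOP56, a core protein of C/D particles, had RPB1 of 3.69 to 17.9 in WT and lay under 1 region of 68.3 in KO, with pSer2 of 17.3 and 17.8. The 4 snoRNA genes of RPL13A had RPB1 of 8.01 in WT and 40.2 in KO, with pSer2 of 20.7 and 20.8. Over the genes RPB1 was thus higher in KO in NOP56 and RPL13A, but the strongest RPB1 region within 5 kb was higher in WT without centring. It had 87.5 and 68.3 in WT and KO for SNORD86 in NOP56 and 56.8 and 40.2 for SNORD35A in RPL13A. Over all genes the median log2 ratio of KO to WT by this measure was -0.46, beside -0.50 at SNORD35A.

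**Figure D2:**
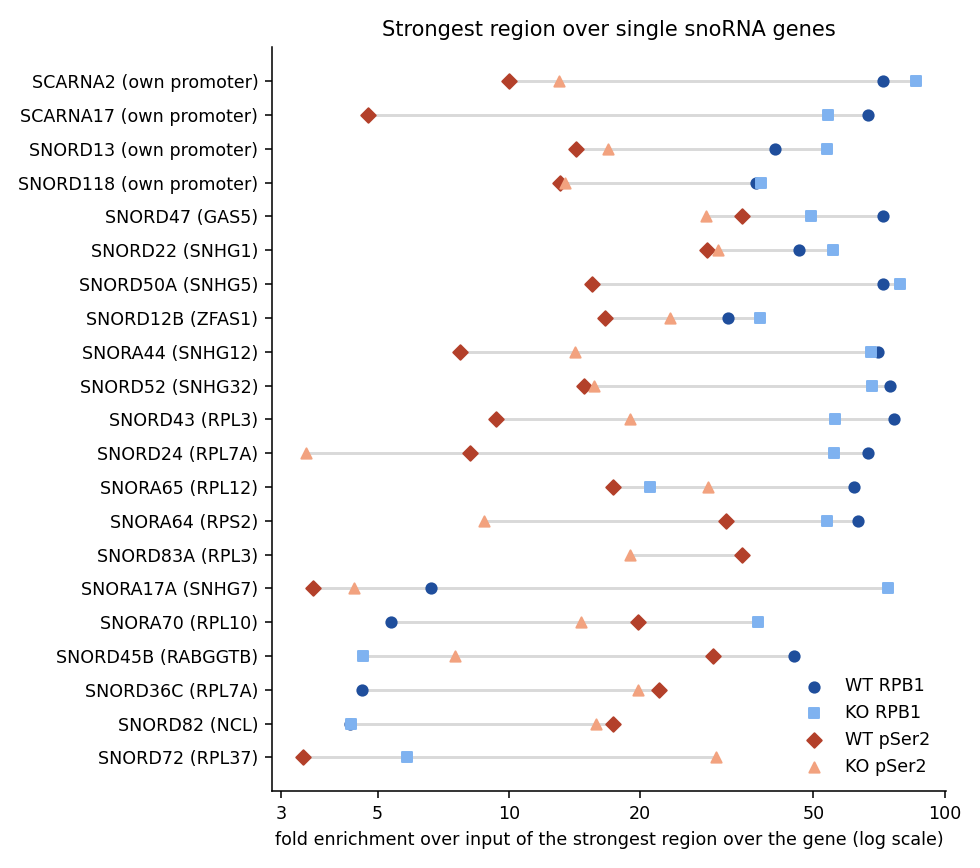
The horizontal log axis gives the fold enrichment over input of the strongest region over each of 21 snoRNA genes in the 4 lists, with the host in parentheses, and a missing symbol means that no region lay over the gene. SNORD47, SNORD50A and the order of the genes were chosen after their values were seen. RPB1 symbols lie to the right of pSer2 symbols in the upper part, while SNORA17A and SNORA70 have an RPB1 value in KO far above that in WT and SNORD45B one far below it. Within 5 kb of each of these genes the strongest RPB1 region was higher in WT without centring. It had 107.1 in WT and 74.3 in KO at SNORA17A, 56.1 and 37.4 at SNORA70, and 45.1 and 24.0 at SNORD45B. Their log2 ratios of KO to WT were -0.53, -0.58 and -0.91, beside a median of -0.46 over all genes.

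The first comparison between cell types asked which member regions were found in both. In RPB1, 42 of 226 WT member regions and 88 of 245 KO member regions had no overlapping region in the other cell type, beside 38.1% and 25.1% of all regions. The overlapped share was 81.4% (interval 75.8 to 85.9) of WT member regions, above the 61.9% over all WT regions, and 64.1% (57.9 to 69.8) of KO member regions, below the 74.9% over all KO regions. In pSer2, 240 of 573 WT and 120 of 438 KO member regions had no partner, beside 47.8% and 30.1% of all regions. Regions without a partner were weak, with median fold enrichments of 4.51 and 4.56 in WT and KO RPB1 and 3.56 and 3.60 in pSer2, and the strongest had 9.40 (SNORA31B, WT RPB1).

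By gene, 18 members had an assigned RPB1 region in WT only and 32 in KO only, of 146 with one in either list, which is 12.3% and 21.9% beside 8.73% and 3.95% of all genes. In 9 of the 18 and in 9 of the 32 a region of the other cell type nonetheless overlapped the gene under another name. By position, 6 snoRNA genes lay under an RPB1 region in WT only and 37 in KO only, and 133 in both. No count by position was made over all genes, so these counts have no share to stand beside. The 37 genes came from 29 loci, counting genes within 5 kb as 1 locus. At SNORD59A (in ATP5F1B) the KO region over the gene had 34.8, and the WT list held 67.1 within 5 kb but nothing over the gene. SNORA33 (in RPS12) lay under a KO region of 46.7 that spanned 3 snoRNA genes over 8670 bp, and within 5 kb of it the WT list held 46.4. SNORA84 (in IARS1) had 22.3 over the gene in KO and 23.6 within 5 kb in WT. SNORA84 was chosen after its values were seen. At these 3 genes KO regions reached the snoRNA gene where WT regions of like or greater height stopped short of it.

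For pSer2 more members had a region in WT only than in KO only, as was so among all genes, and both shares were above those of all genes. Of 205 members with a pSer2 region in either list, 56 had one in WT only (27.3%) and 19 in KO only (9.27%), beside 14.1% and 4.23% of all genes. By position 44 genes lay under a pSer2 region in WT only and 25 in KO only, again without a count over all genes. The genes of the SNORD116 cluster, described below, made up 24 of the 56 and 15 of the 44.

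The second comparison set the height of the regions in KO against WT, as the log2 ratio of the strongest assigned region of a gene in each list. The median over all 12877 genes with an RPB1 region in both lists was -0.43, and over the 96 members it was 0.089, which is 0.52 above all genes (a ratio of 1.43). After centring on all genes, 43 of the 96 were at least 1.5-fold higher in KO and 5 at least 1.5-fold lower, which is 44.8% and 5.21% beside 11.3% and 9.64% of all genes. For pSer2 the median was -0.095 over all 10871 genes and 0.0068 over the 130 members, 0.10 above, with 17 members at least 1.5-fold higher and 14 lower (13.1% and 10.8%, beside 8.44% and 8.35%).

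Many of the largest RPB1 ratios moved with where a region began and ended. The largest centred rise was at SNORA17A, in an intron of SNHG7, from 6.64 in WT to 74.3 in KO, a centred log2 ratio of 3.92. In WT a 514 bp region lay on the gene with its summit 6 bp away, and in KO a 4035 bp region covered the gene and the start of SNHG7 with its summit 1245 bp away. Within 5 kb of the gene the strongest WT region had 107.1. That WT region was assigned to SNHG7, whose own assigned value went from 107.1 in WT to 5.28 in KO, a centred log2 ratio of -3.91, so that host and snoRNA showed nearly opposite ratios. At SNORD15A (RPS3) the region over the gene had 8.03 in WT and 50.6 in KO, and within 5 kb WT had 55.5. At SNORD45B the values ran in reverse, from 45.1 in WT to 4.63 in KO, where a 490 bp region was listed apart from one of 24.0 nearby. SNORA65, in RPL12, had 61.8 in WT and 21.0 in KO, and 34.1 in KO within 5 kb.

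The ratio was therefore also taken from the strongest region within 5 kb of the gene start, whatever gene it was assigned to, for members and for all genes alike. By this measure, chosen after seeing the data, the RPB1 median was -0.25 over 149 members and -0.46 over 13009 genes, so that members stood 0.22 above all genes. Of the 149, 30 were at least 1.5-fold higher than the median gene in KO and 2 lower, which is 20.1% and 1.34% beside 9.42% and 8.78%. Neighbouring genes share regions here, so these are not independent sites. SNORA8, SNORA25, SNORA32, SNORD5 and SNORD6 all had 16.8 in WT and 27.5 in KO. SNORD69 had 8.34 and 33.7, while SNORD19, with the same KO value, had 48.9 in WT. Taken per locus, over snoRNA genes under a region, the RPB1 median without centring was -0.29 over 86 loci. For pSer2 the medians were -0.054 over 198 members and -0.073 over 8738 genes, with 13 members higher (6.57%, beside 9.22%) and 20 lower (10.1%, beside 10.1%). The RPB1 ratios of members thus remained shifted upward relative to all genes by a smaller amount, and without centring their median was below 0.

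**Figure D3:**
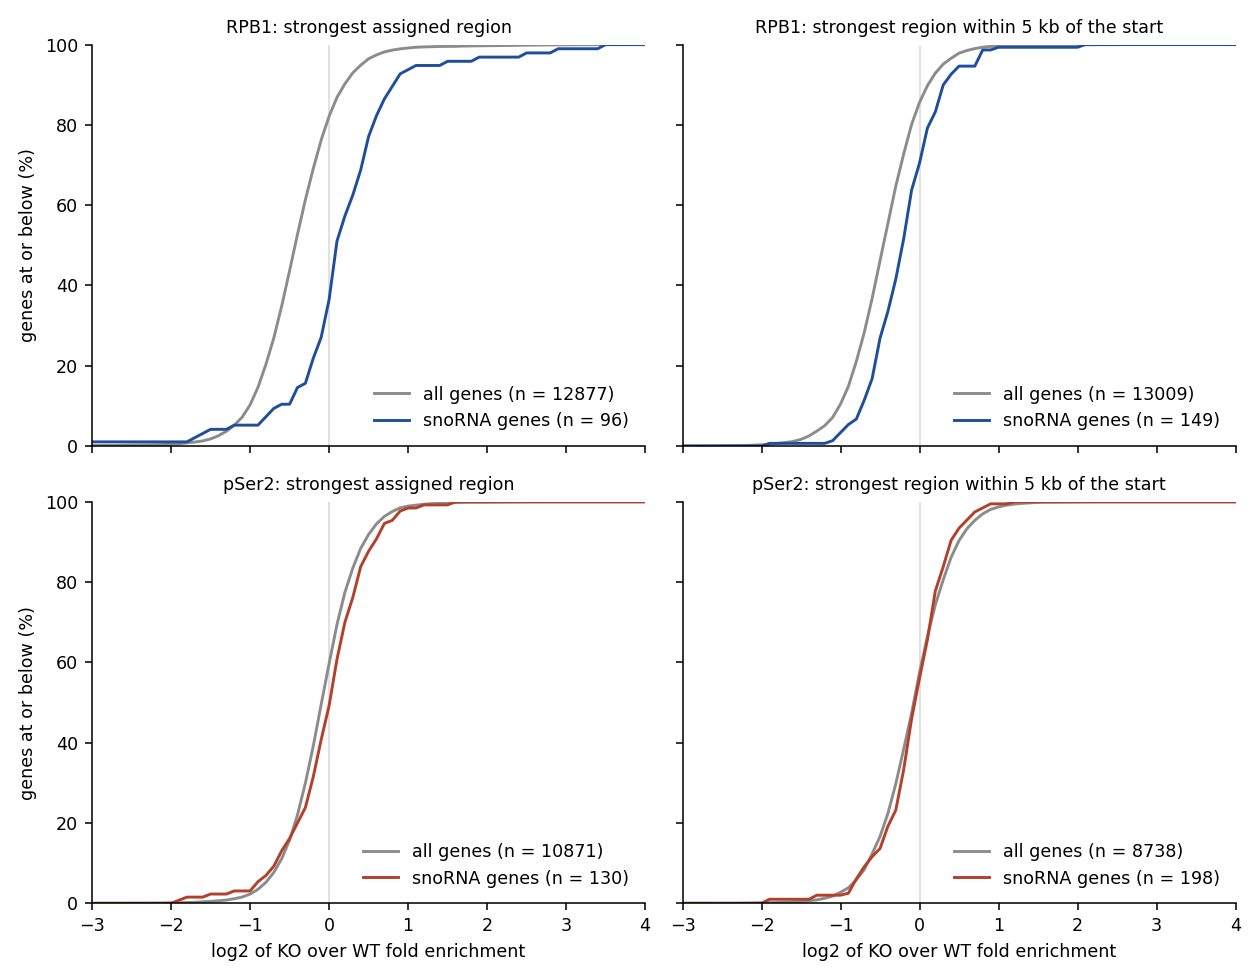
Each panel plots the cumulative percentage of genes against the log2 ratio of KO over WT fold enrichment, for snoRNA genes (coloured) and all genes (grey), RPB1 above and pSer2 below, with the strongest assigned region on the left and the strongest region within 5 kb of the gene start on the right. The RPB1 curve of snoRNA genes lies to the right of all genes by 0.52 at the median on the left and by 0.22 on the right, and the pSer2 curves nearly coincide.

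Pairs of overlapping regions gave the shift by class. Among 113 RPB1 pairs of member regions with summits within 500 bp of each other the median log2 ratio was 0.12, against -0.26 over 24876 other pairs. At promoters it was 0.44 over 99 member pairs against -0.36 over the others, and in introns -0.048 over 21 member pairs against 0.028. The promoter class of a member is that of the snoRNA gene, for most members not the start of the transcript. The promoter pairs of members and of other genes are thus of unlike places. With the pairs ranked by WT fold enrichment into 5 equal classes, the member median was above that of the other pairs in each class, from 0.64 against 0.32 in the weakest to -0.20 against -0.53 in the strongest. The 89 snoRNA genes whose WT and KO RPB1 regions over the gene had summits within 500 bp came from 50 loci. Their median without centring was -0.039 with an SD of 0.42, beside the -0.26 of other pairs with near summits, which is over region pairs and not genes. Without centring 3 genes were at least 1.5-fold higher and 4 lower, and no such count was taken over all genes. Among the 3 higher genes was SNORD14E in HSPA8 (3.14 to 6.66, log2 1.08), a weak region chosen after its values were seen. The lowest were SNORD45A and SNORD45C in RABGGTB, the latter also chosen after its values were seen, both under 1 region of 45.1 in WT and 24.0 in KO (log2 -0.91).

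RABGGTB, which encodes a subunit of the enzyme that attaches geranylgeranyl groups to Rab proteins and hosts 3 SNORD45 genes, had lower values in KO for both antibodies. The pSer2 region over SNORD45B had 29.5 in WT and 7.52 in KO, a log2 ratio of -1.97, and its summit was 7025 bp from the gene in WT and 3193 bp in KO. SNORA65 moved in opposite directions with the 2 antibodies, with RPB1 at 61.8 and 34.1 in WT and KO and pSer2 at 17.3 and 28.7 within 5 kb. SNORA64 in RPS2 had pSer2 of 31.5 in WT and 8.75 in KO over the gene, and 17.5 in KO within 5 kb.

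The third comparison set pSer2 against RPB1 in the same cells. Of 114 members with an assigned RPB1 region in WT, 81 also had a pSer2 region (71.1%, beside 77% of all genes), and of 128 in KO, 88 did (68.8%, beside 73.4%). The log2 ratio of pSer2 to RPB1 had a median of -0.14 over the 81 members in WT against -2.10 over all 10914 genes, and of -0.22 over the 88 members in KO against -1.73 over 9880 genes. Centred on all genes, 70 of 81 members in WT (86.4%, beside 33.6%) and 67 of 88 in KO (76.1%, beside 32.1%) were at least 1.5-fold higher. Fold enrichments of the 2 antibodies are on different scales, so only the distance from all genes is read.

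This distance depended on which region stood for the gene. With the strongest region within 5 kb of the gene start the members were 1.12 above all genes in WT and 1.02 in KO on the log2 scale, with 110 of 151 (72.8%, beside 29.8%) and 107 of 158 (67.7%, beside 27.9%) at least 1.5-fold higher. Among RPB1 regions annotated to a promoter and paired with an overlapping pSer2 region, the median log2 ratio was 0.29 over 101 member pairs and -1.71 over other pairs in WT, and 0.058 and -1.43 in KO. Away from promoters it was 0.37 over 102 member pairs and 0.13 over others in WT, and 0.43 and 0.15 in KO. The promoter class of a member is that of the snoRNA gene, which lies inside a host, and is thus not the start of the transcript for most members.

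Low and high ratios were both found in 1 host. SNORD43 had 9.34 over 76.4 in WT, SNORA44 had 7.74 over 70.4 and SNORD24 had 8.16 over 66.7. At the other end SNORD36C, also in RPL7A at 2628 bp from its start where SNORD24 lies at 1178 bp, had a pSer2 region of 22.1 and an RPB1 region of 4.59, and SNORD82, in NCL (nucleolin), had 17.4 and 4.33 in WT and 15.8 and 4.34 in KO. SNORD24 and SNORD36C thus had opposite ratios inside 1 host by the regions assigned to them. Within 5 kb both genes had the same WT values, 66.7 for RPB1 and 22.1 for pSer2.

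Many of the members with a pSer2 region in WT only lay in the imprinted region of chromosome 15, where the regions were weak. There the SNORD116 and SNORD115 genes lie as tandem copies in introns of SNHG14, a long noncoding transcript that starts near SNRPN, is made from the paternal chromosome and runs on toward UBE3A in neurons. Loss of the SNORD116 genes is linked to Prader-Willi syndrome. RefSeq has 30 SNORD116 genes in hg38 from chr15:25051476-25108352 and 48 SNORD115 genes from chr15:25170723-25269858. The WT pSer2 list held 61 regions in the SNORD116 span, which covered 23.7 of 56.9 kb with fold enrichments up to 5.33 and a median of 3.81, and 15 of the 30 genes lay under one. The KO pSer2 list, which held 81012 regions to the 102674 of WT, and both RPB1 lists held 0 regions there. SNORD107, SNORD64 and SNORD108, single copies of the same unit, lay under regions in WT pSer2 alone, and SNORD109A and SNORD109B under none. No SNORD115 gene lay under a region in any list, and the 9 WT pSer2 regions assigned to SNORD115-1 lay before it.

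Copies of SNORD116 that lay under a WT pSer2 region are similar in sequence, which bears on how reads are placed among them. The first copy, at chr15:25051476-25051572, and the second, at chr15:25054209-25054305, are printed with the C and D boxes in capitals.
SNORD116-1: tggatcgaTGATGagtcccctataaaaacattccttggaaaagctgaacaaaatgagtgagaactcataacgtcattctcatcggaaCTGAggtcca
SNORD116-2: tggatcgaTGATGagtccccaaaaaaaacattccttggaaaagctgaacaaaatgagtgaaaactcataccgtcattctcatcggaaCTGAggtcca
Over the 14 other overlapped copies identity to SNORD116-1 ranged from 75% to 95.9% with a median of 87.6%, and all 15 held both boxes. SNORD116-1 had a fold enrichment of 4.06 and SNORD116-2 of 5.08 in WT pSer2.

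The absence in KO was not limited to the repeated copies. Between the start of the unit and SNORD116, a stretch of 95.5 kb, the WT pSer2 list held 85 regions over 51.2 kb and the KO pSer2 list 13 regions over 4.22 kb. Between SNORD116 and SNORD115 it held 42 regions in WT and 10 in KO. From SNORD115 to the start of UBE3A it held 25 in WT and 27 in KO, and the largest fold enrichments there were 8.28 and 8.32. The first of these summits lay 362.8 kb from the unit start in WT and 363.3 kb in KO, well past SNORD115. Whether these regions belong to the unit or to UBE3A was not tested. At the start of the unit the RPB1 region had a fold enrichment of 54.7 in WT (chr15:24954524-24955995) and 15.2 in KO (chr15:24954594-24955585). The pSer2 region at the same place had 6.10 in WT and 7.77 in KO. At the UBE3A promoter RPB1 was 30.7 in WT and 29.3 in KO. The RPB1 height at the unit start and the number of pSer2 regions across it were thus lower in KO, while RPB1 at the UBE3A promoter was close. A pSer2 region at the UBE3A promoter was listed in WT (4.18) and not in KO. The imprinted SNORD113 and SNORD114 genes of chromosome 14 lay under no region in any list.

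**Figure D4:**
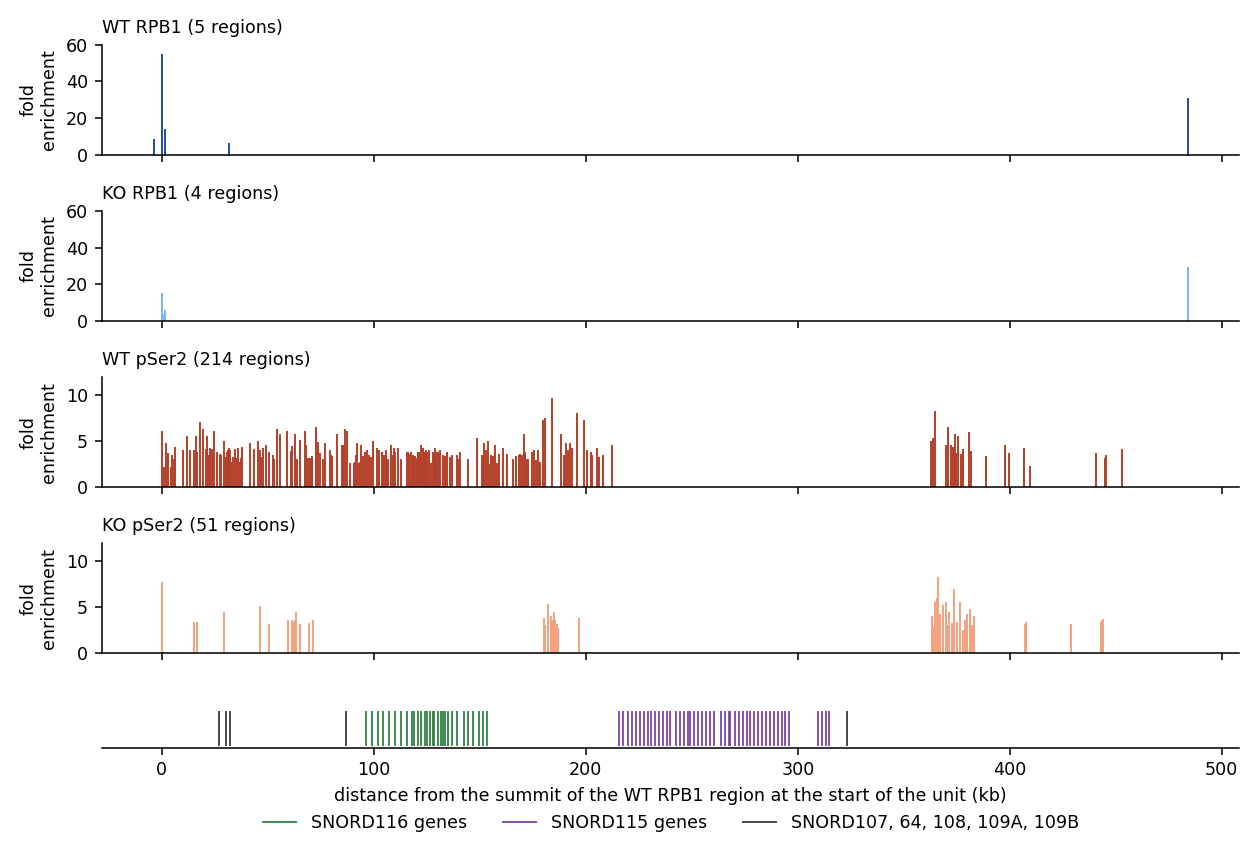
Vertical lines give the fold enrichment over input of each listed region at its summit, against the distance in kb from the summit of the WT RPB1 region at the start of the unit, in 1 panel per list (RPB1 axes end at 60 and pSer2 axes at 12), and the bottom row marks the starts of the snoRNA genes. WT pSer2 regions fill the stretch through the SNORD116 genes and end before SNORD115, KO pSer2 shows few of them, and both cell types have pSer2 regions near UBE3A on the right.

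The genes that make and carry snoRNPs were occupied in both cell types. Of 8 core proteins of C/D and H/ACA particles, 8 had an RPB1 region in WT and 7 in KO, and 8 had a pSer2 region in each. FBL (fibrillarin) had RPB1 of 40.0 in WT and 23.6 in KO, DKC1 (dyskerin) 26.0 and 19.0, NOP58 23.8 and 21.0, and SNU13 23.0 and 24.8. Of 11 assembly factors all had an RPB1 region in both cell types, with ZNHIT3 at 58.2 and 46.0 and RUVBL2 at 33.5 and 19.1. The centred log2 ratio of RPB1 had a median of -0.024 over 7 core genes and of 0.090 over the 11 assembly factors. NOP56 (-0.96) and NAF1 (-0.67) were at least 1.5-fold lower and none higher, beside 9.64% and 11.3% of all genes. The region of 68.3 over the snoRNA genes in NOP56 in KO was not assigned to NOP56. For pSer2 the medians were 0.14 over 8 core genes and 0.11 over 10 assembly factors. NHP2 was higher (0.61) and FBL (-1.14) and PIH1D1 (-0.93) were lower, beside 8.44% and 8.35% of all genes. Of 21 noncoding hosts with a symbol that starts with SNHG, 20 had an RPB1 region in WT and 19 in KO. SNHG5 had 72.1 and 79.0, and SNHG22 had 66.6 and 54.1, the values given above for SCARNA17. The median centred RPB1 ratio of these SNHG hosts was 0.055 over 19, with 3 higher and 3 lower, beside 11.3% and 9.64% of all genes. Their median pSer2 ratio was 0.0014 over 17, with SNHG19 lower (-1.27) and none higher, beside 8.35% and 8.44% of all genes. NAF1, NHP2, PIH1D1, SNHG19 and NOP56 were named after their values were seen. GAS5 was the assigned gene of no region, and the region over its snoRNA genes was assigned to its antisense gene GAS5-AS1 in all 4 lists.

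PTPN6 itself had an RPB1 region of 24.0 in WT and 17.2 in KO, and edits in its phosphatase domain would not show in this assay. All 8 hepatocyte markers had an RPB1 region in WT and 7 in KO, with APOB at 82.1 and 63.8 and SERPINA1 at 67.2 and 64.8. Of 10 markers of other cell types, 4 had an RPB1 region in WT and 3 in KO, among them the epithelial genes KRT19 (59.6 and 14.7) and EPCAM (32.1 and 23.3), and PTPRC, CD3E, VWF, COL1A1, COL1A2 and DES had none in any list.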

How the data were processed

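Using the MUGQIC pipeline, the authors removed adapters with Trimmomatic, mapped reads to hg38 (GRCh38) with BWA and ran MACS2 for narrow peaks on each library with its matching input (tool versions are not given in the sources used here). Per the file headers, each deposited list gives a fold enrichment at the summit (a ratio to input), the −log10 p-value and the −log10 q-value, with the nearest gene and genomic feature. The smallest listed −log10 q-value was 1.31. An authors' comparison of KO with WT RPB1 over 417 regions, with p-values and adjusted p-values, was also deposited and was not used.

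Member rows were taken by gene symbol, and the members and gene lists were chosen with earlier results of these data known. Named genes were those with their own promoter, the 8 strongest per list, the 5 largest and 5 smallest centred ratios where both regions had −log10 q-values of 5 or more, for KO to WT and for pSer2 to RPB1, the 5 strongest per antibody in 1 cell type only, and the imprinted clusters. Genes outside this rule are said to be chosen after their values were seen. Positions came from RefSeq. Hosts came from GENCODE release 44 in place of the annotation in the lists, and the strand from the lists or, where absent there, GENCODE. In GAS5 and SNHG genes, snoRNAs of unknown strand were matched on either strand. Overlap required 1 bp. Log2 ratios were centred on the median over all genes measured the same way, and a fold of 1.5 was the mark for a change. With 1 library per group there was no test. Shares have 95% Wilson intervals, which cover counting error only, and read depth is unknown because the lists hold no counts. The overlap and ratio functions were tested on simulated data. Scripts ran on SciPy 1.17.1, NumPy 2.4.6 and pandas 2.3.3 (Python 3.11.15). The alternatives were a stricter q-value, overlap with the snoRNA gene, merged regions, 1 count per locus (genes within 5 kb), 50% reciprocal overlap, ratios without centring, region pairs and a fold of 2, and, chosen after seeing the data, the strongest region within 5 kb, pairs with summits within 500 bp and promoter pairs. The values of 1 named gene are not reported here.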

Additional observations from a re-analysis of the deposited data

How the results depend on the processing

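No paired analysis was possible because the labels carry no replicate numbers and each antibody has 1 library per cell type. No library was left out for the same reason, and absence of a region is absence of a call, at an unknown depth.

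Of 82 alternative values of the main results, 44 stayed within their interval or within 1.5 times the count. Counting regions over the snoRNA gene itself gave 95, 117, 164 and 140 regions in WT RPB1, KO RPB1, WT pSer2 and KO pSer2, with median fold enrichments of 13.0, 9.12, 5.05 and 6.01. A −log10 q-value of at least 5 left 319 and 261 pSer2 regions in WT and KO, raised the medians to 6.64, 7.15, 4.67 and 4.95 in the same order of lists, and moved the overlapped share to 71.3% in KO RPB1 and 63.3% in WT pSer2. Reciprocal overlap of 50% lowered the shares to 31.0% and 30.6% in WT and KO RPB1 and 30.9% and 41.1% in WT and KO pSer2.

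The RPB1 log2 ratio of KO to WT, 0.52 when centred, was 0.089 without centring, 0.22 with the strongest region within 5 kb and 0.38 over pairs with summits within 500 bp. The members higher in KO, 43 at first, were 18 at a fold of 2 and 18 without centring, and those lower, 5 at first, were 10 without centring and 2 within 5 kb. Without centring 34.9% of all genes were at or below a log2 ratio of -0.6, beside 10.4% of members. At or below 0.6 were 97.4% of all genes and 82.3% of members. No share over all genes was taken at a fold of 2. By position 6 genes had an RPB1 region in WT only. For pSer2 a fold of 2 left 3 higher and 4 lower, again without a share over all genes.

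The pSer2 to RPB1 log2 ratio, 1.96 in WT and 1.504 in KO when centred, was -0.14 and -0.22 without centring, since the median of all genes lay below 0. It was 0.51 and 0.35 over overlapping pairs, 0.23 and 0.28 over pairs away from promoters, and 1.12 and 1.02 within 5 kb.

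Of the genes with the largest ratios, the RPB1 direction reversed with the strongest region within 5 kb at SNORA33 (0.47), SNORD12 (0.71), SNORA17A (-0.067), SNORA14B (-0.39) and SNORD35A (-0.038), and the pSer2 direction at SNORD63B (-1.25) and SNORA44 (-0.64), where another region then stands for the gene.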
